A study of Mus musculus with 12 samples.

Results

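The genes described here encode proteins of the synaptic vesicle membrane and of the machinery that takes vesicle membrane back up after release. They are Sv2a, Sv2b, Sv2c, Syn1, Syn2, Syp, Syngr3, Sh3gl2, Synj1 and Dnm1, and make up 10 of the 24346 genes in the deposited tables. They were chosen by gene symbol with earlier results of these data known, so their counts give no independent support. RNA was sequenced from 12 libraries in 4 groups of 3: C57BL/6 mice 12 weeks after α-synuclein fibrils, 12 weeks after saline, 7 weeks after α-synuclein fibrils and 7 weeks after saline. The fibrils were made in advance from α-synuclein with the G51D substitution, found in a familial form of parkinsonism, and were injected into the substantia nigra on both sides (20 µg at 5 µg/µL). Saline was given by the same route. All 4 groups were treated alike after that: midbrain tissue was dissected, and cells positive for the fluorescent protein hKO1, which marked dopaminergic neurons in this study, were sorted by flow cytometry and lysed in TRIzol LS. A Direct-zol microprep kit served for RNA isolation and the SMARTer Ultra-Low kit for amplified cDNA. The age of the mice, the way hKO1 was introduced and whether each library is a separate animal are not given in the labels, so the p-values reflect spread between samples that may be technical, and time after injection and age cannot be told apart. The study asked how expression in dopaminergic neurons differs at these times after the fibrils.

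Synaptic vesicles store transmitter and fuse with the presynaptic membrane, and the membrane is then retrieved by endocytosis and refilled. SV2 glycoproteins, synaptophysin and synaptogyrin span the vesicle membrane, while synapsins coat its cytoplasmic face and tether vesicles in a reserve pool. Endophilin A1 bends membrane at the neck of the endocytic bud, dynamin-1 cuts the neck, and synaptojanin-1 removes phosphates from membrane phosphoinositides so that the clathrin coat can come off. In dopaminergic axons this cycle carries dopamine loaded by the vesicular monoamine transporter, and α-synuclein itself binds synaptic vesicles.

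RefSeq promoter entries (GRCm38.p6) were found for 9 of the 10 genes, all but Syngr3, and those of 6 are shown because the results turn on them: Syn1, Syn2, Syp and Dnm1 had the smallest unadjusted p-values with a printed promoter at 12 against 7 weeks, Sv2a had a fold of the opposite sign, and Sh3gl2 carries the same 8-letter element as Syn1. Each line gives the 250 bases before the annotated start, 5′ to 3′ on the gene's strand, with capitals for matches to 4 motifs searched on both strands: the cAMP response element (TGACGTCA), the GC box (GGGCGG), the left arm of RE1, the binding sequence of the neuronal repressor REST (TTCAGCACC), and the TATA box (TATAAA).
Syn1, chrX:20920919-20921168, minus strand: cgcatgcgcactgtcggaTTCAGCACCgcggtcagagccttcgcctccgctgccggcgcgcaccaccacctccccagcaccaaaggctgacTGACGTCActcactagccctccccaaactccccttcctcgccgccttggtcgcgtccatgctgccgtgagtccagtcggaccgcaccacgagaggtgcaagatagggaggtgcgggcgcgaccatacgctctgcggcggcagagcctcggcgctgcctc
Sh3gl2, chr4:85205206-85205455, plus strand: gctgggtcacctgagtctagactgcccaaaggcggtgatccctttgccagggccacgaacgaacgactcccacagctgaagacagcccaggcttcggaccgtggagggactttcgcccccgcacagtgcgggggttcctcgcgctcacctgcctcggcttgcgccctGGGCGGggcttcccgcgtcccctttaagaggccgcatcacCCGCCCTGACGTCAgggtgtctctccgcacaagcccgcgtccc
Syn2, chr6:115134652-115134901, plus strand: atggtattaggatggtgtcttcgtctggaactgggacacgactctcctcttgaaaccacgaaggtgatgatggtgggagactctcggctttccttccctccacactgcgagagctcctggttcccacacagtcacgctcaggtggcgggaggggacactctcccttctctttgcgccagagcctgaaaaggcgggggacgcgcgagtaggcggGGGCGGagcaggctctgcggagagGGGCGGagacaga
Syp, chrX:7638330-7638579, plus strand: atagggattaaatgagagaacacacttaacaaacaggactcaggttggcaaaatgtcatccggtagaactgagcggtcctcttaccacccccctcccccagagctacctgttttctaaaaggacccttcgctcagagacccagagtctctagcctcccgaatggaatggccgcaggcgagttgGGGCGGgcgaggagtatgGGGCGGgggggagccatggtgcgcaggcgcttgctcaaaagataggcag
Dnm1, chr2:32353330-32353579, minus strand: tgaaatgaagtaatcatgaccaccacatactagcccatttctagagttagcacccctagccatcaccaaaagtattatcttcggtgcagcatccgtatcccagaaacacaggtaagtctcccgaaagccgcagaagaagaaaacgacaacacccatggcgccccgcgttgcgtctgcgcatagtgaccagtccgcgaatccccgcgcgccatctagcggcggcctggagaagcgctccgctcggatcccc
Sv2a, chr3:96180977-96181226, plus strand: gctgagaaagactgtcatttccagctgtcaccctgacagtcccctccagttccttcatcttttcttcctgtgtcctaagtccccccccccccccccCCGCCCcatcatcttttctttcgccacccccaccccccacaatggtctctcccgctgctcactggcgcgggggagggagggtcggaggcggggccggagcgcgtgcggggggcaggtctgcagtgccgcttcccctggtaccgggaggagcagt

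Syn1 had the cAMP response element at bases -159 to -152 and the RE1 arm at -232 to -224. Sh3gl2 had the cAMP response element at -37 to -30, directly after a GC box in reverse at -43 to -38 and with no overlap between the motifs. The cAMP response element was present in 2 of the 9 promoters and in 1.55% of all 32851 promoters of the table (1.77% of its 27025 genes). The RE1 arm was in 1 of 9, in 0.301% of all promoters and in 0.348% of genes. For each of the 9 genes 1 window was used, though the table holds 4 entries for Sv2b and 2 each for Syn2 and Synj1. A GC box was present in 5 of the 9 promoters (Sv2a, Sv2c, Syn2, Syp and Sh3gl2), against 32.7% of all promoters and 35.4% of genes. All of these but Sv2a had a pair of them. A TATA box was found in 1 of 9, that of Sv2b, in reverse, and in 12.4% of all promoters and 14.3% of genes. None of the 4 motifs was in the windows of Dnm1 and Synj1. A match is a match of letters in this window, not a measured binding site.

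Libraries held 2506730 to 5533324 assigned fragments, and every one of the 10 genes passed the filter on low counts, which left 17380 genes. Replicates 1 and 2 of synuclein at 12 weeks lay apart from the rest: their mean correlation with the other libraries over all tested genes was 0.848 and 0.827, against 0.873 to 0.899 for the other 10, and replicate 2 had 17409 genes with a fragment, against 19960 to 21135. The sorted material held neuronal RNA beside much RNA of other cells. Snap25 was at 122.9 to 861.1 CPM (counts scaled to library size with TMM factors) and Th, tyrosine hydroxylase of dopamine synthesis, at 160.5 to 857.6 CPM, but Mbp of oligodendrocyte myelin was at 3364 to 10740 CPM.

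Per length, the genes spanned more than an order of magnitude. Mean FPKM over the 12 libraries was highest for Syngr3 (38.9 ± 26.7, SD) and Syp (36.7 ± 17.1), followed by Sv2a (21.5 ± 7.00), Sh3gl2 (16.4 ± 7.01), Syn2 (12.6 ± 7.29), Synj1 (11.1 ± 2.22), Syn1 (9.93 ± 6.36) and Dnm1 (9.19 ± 4.06). Sv2c (3.17 ± 1.62) and Sv2b (2.48 ± 0.872) were lowest. The step between Dnm1 and Sv2c was the one between neighbours that held in 12 of 12 libraries. Each other neighbour in this order was above the next in 6 to 9 of 12 libraries, so those ranks lie within the spread. Synj1 varied least relative to its mean, and Syngr3 most.

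At 12 against 7 weeks, averaged over both treatments, 9 of the 10 genes had lower means and Sv2a a higher one, but none passed the test over all genes. The median log2 fold of the 10 was -0.62, against -0.028 over all genes tested, of which 53.0% were lower. By edgeR's quasi-likelihood test with an adjusted p under 0.05, 0 of 10 were called (0.834% of all genes were), and by limma-voom also 0. DESeq2, which called more genes in all than edgeR (counted in the last section), called only Dnm1 of the 10 (adjusted p = 0.0319). At an unadjusted p under 0.05, 5 of 10 were lower (Dnm1, Syp, Syn1, Syngr3 and Syn2), against 5.29% of all genes. No gene of the 10 had all 6 libraries at 12 weeks below all 6 at 7 weeks, a separation that 0.386% of all genes showed. One library weighed on these values: without replicate 1 of synuclein at 7 weeks the median was -0.3, with 7 of 10 lower and 3 at an unadjusted p under 0.05.

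**Figure D1:**
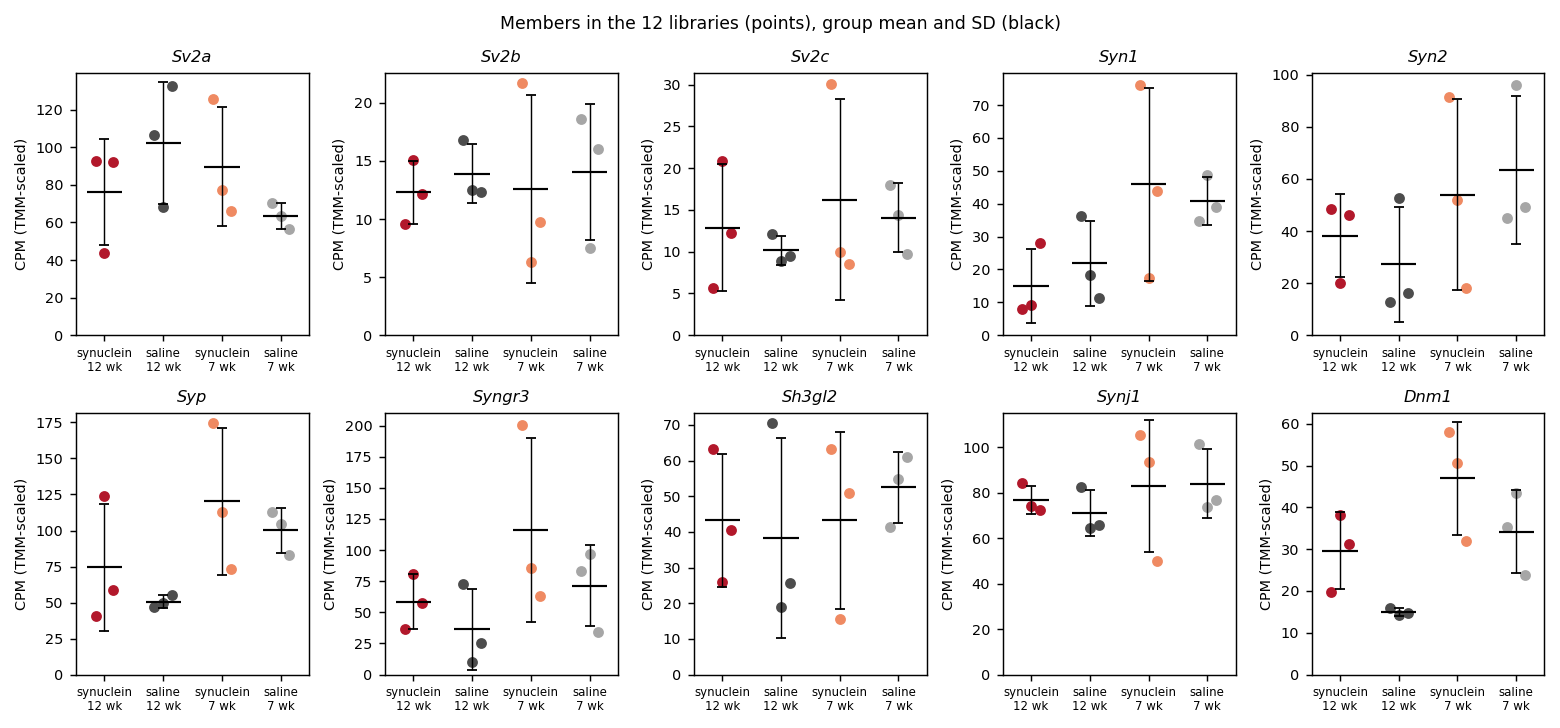
CPM (TMM-scaled, linear axis from 0) of each gene in each of the 12 libraries, grouped as synuclein and saline at 12 weeks, then synuclein and saline at 7 weeks, with points for libraries and black marks for the group mean and SD (n = 3). Dnm1 after saline at 12 weeks sat at 14.25 to 15.95 CPM, below every other library, and 1 synuclein library at 7 weeks was the highest point in 7 of the 10 panels.

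Markers of cell types moved over the same interval, in which 53.0% of all genes were lower and 0.834% were called by edgeR. The 15 pan-neuronal markers summed to 792.1 to 1082 CPM after synuclein and 716.4 to 1037 CPM after saline at 12 weeks, against 1134 to 3207 and 1534 to 2085 CPM at 7 weeks, with 14 of 15 lower and 3 called lower. The dopaminergic list summed to 766.8 to 920.1 and 665 to 1250 CPM at 12 weeks, against 795.7 to 2720 and 1480 to 2322 CPM at 7 weeks, with 12 of 14 tested genes lower and 2 called. The 15 oligodendrocyte markers summed to 28610 to 41360 and 26920 to 47080 CPM at 12 weeks, against 18110 to 21640 and 17500 to 27280 CPM at 7 weeks, with 15 of 15 higher and 8 called. Endothelial markers were lower in 12 of 12, with 1 called. After saline alone 12 of 12 were lower (median -0.597), but after synuclein alone only 7 of 12 were (median -0.022). Their sums were 10850 to 17480 CPM after synuclein and 9517 to 13000 CPM after saline at 12 weeks. At 7 weeks they were 13710 to 21990 and 15160 to 24880 CPM. Ependymal markers had the largest median log2 fold of the lists (2.46), with 7 of 7 higher, 6 at an unadjusted p under 0.05 and 0 called by edgeR. Their sum was high in 2 libraries, replicate 1 of synuclein (489.1 CPM) and replicate 2 of saline (248.2 CPM) at 12 weeks, against 14.81 to 63.51 CPM in the other 10. Microglial markers were lower in 12 of 13 (median -0.795), with 3 at an unadjusted p under 0.05 and 0 called, and summed to 88.85 to 191 CPM after synuclein and 146.2 to 243.8 CPM after saline at 12 weeks, against 161.7 to 694.8 and 130.7 to 254.5 CPM at 7 weeks. Astrocyte markers were lower in 6 of 10 (median -0.038), with 1 at an unadjusted p under 0.05 and 0 called. Of the dopaminergic markers, Foxa2 and Lmx1b had no fragment in 4 libraries each and Kcnj6 in 1; no pan-neuronal, oligodendrocyte or endothelial marker was at 0 in any library, while some microglial and ependymal markers were at 0 in some libraries. In sorted bulk material, fewer cells of a type and less RNA per cell cannot be told apart, and the part of these shifts in the values of the 10 genes was not tested.

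The SV2 glycoproteins differed between the times by less than their standard errors. Sv2a (chromosome 3, 96181227 to 96195180), the broadly expressed form and the binding partner of the antiepileptic drug levetiracetam, was at 92.52, 43.6 and 92.38 CPM after synuclein and 106.7, 68.1 and 132.4 CPM after saline at 12 weeks. Its 7-week values were 125.8, 76.99 and 66.28 CPM after synuclein and 70.41, 63.46 and 56.53 CPM after saline. The groups overlapped in time, with 4 of 6 libraries at 12 weeks above the 7-week median, and the log2 fold was 0.23 ± 0.23 (SE; edgeR adjusted p = 0.866). Sv2c (chromosome 13, 95959443 to 96132577), known for its expression in the basal ganglia and in dopaminergic neurons, was at 5.642, 20.84 and 12.19 CPM after synuclein and 12.18, 8.833 and 9.476 CPM after saline at 12 weeks. At 7 weeks it was at 30.08, 10.02 and 8.571 CPM after synuclein and 18.03, 14.42 and 9.757 CPM after saline. Its 12-week mean of 11.5 ± 5.17 CPM lay within the spread of the 7-week mean of 15.2 ± 8.13 CPM (SD, n = 6), with a log2 fold of -0.40 ± 0.43 that came to 0.01 without replicate 1 of synuclein at 7 weeks. Sv2b (chromosome 7, 75114895 to 75331419), a form with a more restricted pattern in brain, averaged 13.1 ± 2.52 CPM at 12 weeks and 13.3 ± 6.35 CPM at 7 weeks (SD, n = 6), a log2 fold of -0.02 ± 0.40 whose sign turned in several settings.

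The synapsins had lower means at 12 weeks. Syn1 (chromosome X, 20848543 to 20920918 in the deposited table) was at 7.898, 9.324 and 28.05 CPM after synuclein and 36.25, 18.24 and 11.2 CPM after saline at 12 weeks. The 7-week libraries held 76.07, 17.46 and 44 CPM after synuclein and 34.63, 48.75 and 39.03 CPM after saline. All 6 libraries at 12 weeks were below the 7-week median, though 2 libraries at 7 weeks (17.46 and 34.63 CPM) lay among them. The log2 fold was -1.25 ± 0.39, the most negative of the 10, with an unadjusted p = 0.00542 and an edgeR adjusted p = 0.191. Without replicate 3 of synuclein at 12 weeks it was -1.66 and passed (edgeR adjusted p = 0.0485), and without both libraries that lay apart it was -0.81 (adjusted p = 0.692). Syn2 (chromosome 6, 115134902 to 115282626) was at 48.52, 20.02 and 46.19 CPM after synuclein and 12.76, 52.72 and 16.37 CPM after saline at 12 weeks. At 7 weeks it was at 91.4, 52.09 and 18.28 CPM after synuclein and 44.93, 96.05 and 49.07 CPM after saline. Its libraries overlapped widely in time, with a log2 fold of -0.85 ± 0.39 (edgeR adjusted p = 0.482). The Syn2 fold ranged between -1.29 without replicate 2 of saline at 12 weeks and -0.53 without replicate 1 of synuclein at 7 weeks, and its unadjusted p was under 0.05 in 10 of 22 other settings. The deposited locus of Syn1 also takes in Araf and Timp1, and that of Syn2 takes in Timp4, genes on the opposite strand that share 9 exon bases (Araf) and 90 exon bases (Timp4) with the synapsins in GENCODE M21. Outside the synapsins, the locus of Sv2b takes in 1500012K07Rik (47 shared exon bases) and that of Synj1 takes in 4930404I05Rik (60) and Paxbp1. That of Dnm1 takes in Mir199b and Gm23363 (0 each). All positions given here are deposited loci, and those of Syn1, Sv2b and Synj1 reach well beyond the GENCODE gene.

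The tetraspan vesicle proteins also had lower means at 12 weeks. Syp (synaptophysin, chromosome X, 7638580 to 7653256), which binds synaptobrevin on the vesicle, was at 40.34, 123.7 and 58.94 CPM after synuclein and 46.98, 49.58 and 55.42 CPM after saline at 12 weeks. Its 7-week values were 174.7, 112.8 and 73.42 CPM after synuclein and 112.8, 104.7 and 82.65 CPM after saline. One library, replicate 2 of synuclein at 12 weeks, lay inside the 7-week range, and the other 5 were below all 6 libraries at 7 weeks. The log2 fold was -0.84 ± 0.26 (unadjusted p = 0.00434, edgeR adjusted p = 0.167), and without that library it was -1.11 and passed (edgeR adjusted p = 0.0227). In GENCODE M21 the antisense gene Gm14703 shares 875 bases with Syp exons, 16.8% of them, and since use of strand in counting is not stated, reads there cannot be told apart. Syngr3 (synaptogyrin-3, chromosome 17, 24685092 to 24689949), reported to bind the dopamine transporter, was at 36.67, 80.9 and 57.52 CPM after synuclein and 73.08, 10.26 and 25.56 CPM after saline at 12 weeks. At 7 weeks it was at 200.7, 85.28 and 63.14 CPM after synuclein and 83, 97.21 and 34.44 CPM after saline. All 6 libraries at 12 weeks were below the 7-week median, but replicate 3 of saline at 7 weeks was below 4 of them, and the log2 fold of -0.99 ± 0.39 did not pass (edgeR adjusted p = 0.369). Without replicate 1 of synuclein at 7 weeks the Syngr3 fold was -0.66.

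Of the endocytic genes, Dnm1 had a lower mean at 12 weeks in both treatments, and Synj1 and Sh3gl2 differed by less than their standard errors. Dnm1 (dynamin-1, the neuronal fission GTPase, chromosome 2, 32308471 to 32353329) was at 19.75, 38.12 and 31.17 CPM after synuclein and 15.95, 14.25 and 14.64 CPM after saline at 12 weeks. The 7-week libraries held 58.14, 50.66 and 32 CPM after synuclein and 35.2, 43.55 and 23.82 CPM after saline. All 6 libraries at 12 weeks were below the 7-week median. The log2 fold was -0.93 ± 0.27, with the smallest unadjusted p of the 10 (0.00266) and an edgeR adjusted p = 0.134, and it stayed between -1.02 and -0.78 over 22 other settings. Synj1 (synaptojanin-1, whose human gene is mutated in an early-onset parkinsonism, chromosome 16, 90936097 to 91044379) was at 84.06, 74.04 and 72.54 CPM after synuclein and 82.65, 64.4 and 65.75 CPM after saline at 12 weeks. At 7 weeks it was at 105.6, 93.3 and 50 CPM after synuclein and 101.6, 73.84 and 76.62 CPM after saline. Its means of 73.9 ± 8.23 CPM at 12 weeks and 83.5 ± 20.9 CPM at 7 weeks (SD, n = 6) differed by less than the 7-week spread (log2 fold -0.18 ± 0.20). Sh3gl2 (endophilin A1, chromosome 4, 85205456 to 85389379) averaged 40.8 ± 21.5 CPM at 12 weeks and 47.9 ± 17.7 CPM at 7 weeks (SD, n = 6), a log2 fold of -0.23 ± 0.36.

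**Figure D2:**
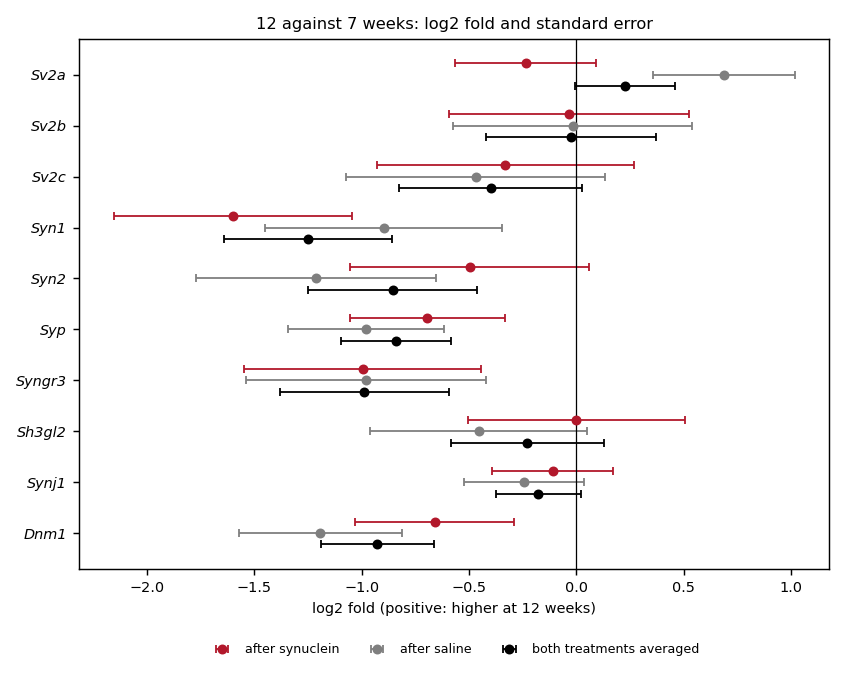
Log2 fold with its standard error (points and bars) of 12 against 7 weeks for each gene, after synuclein, after saline and averaged over both treatments, from the edgeR fit of all genes, with positive values higher at 12 weeks. All genes but Sv2a and Sh3gl2 lie left of 0 in all 3 estimates, Sv2b only barely. Sv2a lies on opposite sides of 0 after synuclein (-0.24) and after saline (0.69).

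Within each treatment, 0 of 10 genes were called at 12 against 7 weeks by edgeR, as were 0.0% of all genes after synuclein and 0.0% after saline. After synuclein 9 of 10 were lower with a median of -0.41, and 1 of 10 (Syn1, -1.60 ± 0.56) was lower at an unadjusted p under 0.05, against 4.28% of all genes. Without replicate 1 of synuclein at 7 weeks that median was 0.12 with 6 of 10 higher, and none of the 10 was past the unadjusted threshold. After saline 9 of 10 were lower with a median of -0.68, and 3 of 10 (Dnm1, Syp and Syn2) were lower at an unadjusted p under 0.05, against 3.92% of all genes. Dnm1 (-1.19 ± 0.38) and Syp (-0.98 ± 0.36) had all 3 saline libraries at 12 weeks below all 3 at 7 weeks, which 7.83% of all genes showed. DESeq2 and limma-voom called none of the 10 in either treatment, though DESeq2 called other genes in both, as counted in the last section.

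Sv2a was the gene whose time course differed most between treatments. The log2 fold of 12 against 7 weeks was -0.24 ± 0.33 after synuclein and 0.69 ± 0.33 after saline. The difference, -0.93 ± 0.47, did not pass (unadjusted p = 0.0634, edgeR adjusted p = 0.952). For this difference of the synuclein effect between times, 0 of 10 genes and 0.0% of all genes were called by edgeR, and at an unadjusted p under 0.05 it was 0 of 10 and 4.49% of all genes.

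A single library stood out across most of the 10 genes. Replicate 1 of synuclein at 7 weeks had the highest CPM in 7 of the 10 genes, all but Sv2a, Syn2 and Sh3gl2. Its pan-neuronal sum was 3207 CPM and its dopaminergic sum 2720 CPM, both the highest of the 12. Over the 12 libraries, the highest correlations of log2 CPM were r = 0.88 for Syp and Dnm1, 0.83 for Syngr3 and Dnm1, and 0.81 for Sv2c and Syp. Sv2a stood apart most, with r between -0.26 and 0.25 against the other 9. Sv2b (r between -0.14 and 0.57) and Sh3gl2 (-0.06 to 0.52) were also loosely tied to the rest. These correlations are descriptions over 12 libraries that share depth, scaling and cell composition.

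**Figure D3:**
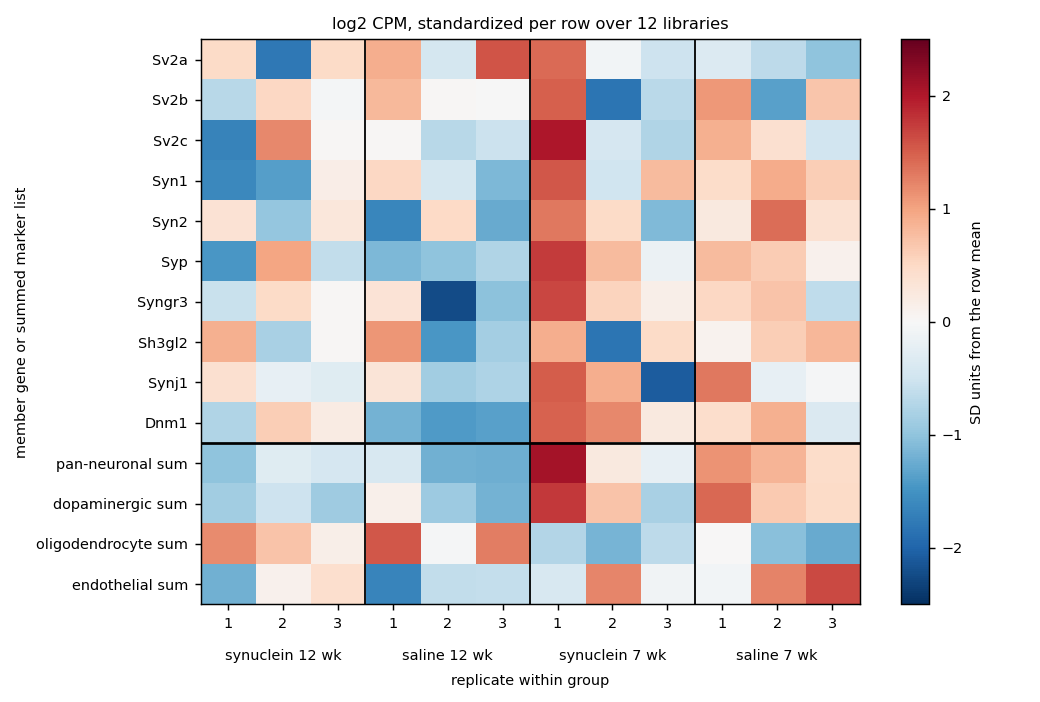
Log2 CPM of each gene and of 4 summed marker lists in each of 12 libraries, standardized within each row (colour scale in SD units from the row mean), with libraries grouped as synuclein and saline at 12 weeks, then synuclein and saline at 7 weeks. The first synuclein library at 7 weeks is dark red in most gene rows and in the pan-neuronal and dopaminergic rows, and oligodendrocyte sums are mostly higher at 12 weeks.

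Of 11267 genes with a mean above 10 CPM, those whose log2 CPM most resembled the mean standardized level of the 10 genes over the 12 libraries were Vamp2 (r = 0.967), which encodes the vesicle SNARE synaptobrevin-2, then Bex2 (0.951), 6330403K07Rik (0.938), Uchl1 (0.934), a neuronal deubiquitinase, and Nap1l5 (0.934). Measured the same way, Snap25 was at r = 0.848, Th at 0.837 and Mbp at -0.615. Among the genes themselves, whose own values enter the mean, r ran between 0.202 for Sv2a and 0.832 for Syngr3.

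Set against the mean log2 CPM of the pan-neuronal markers in the same library, the order of the genes in time was another. That mean was 5.30 ± 0.25 at 12 weeks and 6.15 ± 0.44 at 7 weeks (SD, n = 6). Relative to it, in log2 units, Syp was at 0.57 ± 0.51 at 12 weeks and 0.59 ± 0.19 at 7 weeks, and Dnm1 at -0.89 ± 0.45 and -0.84 ± 0.42 at the same times. These 2 genes thus stayed within their spread on this scale. Sv2a was at 1.11 ± 0.66 at 12 weeks and 0.07 ± 0.28 at 7 weeks, and Synj1 at 0.91 ± 0.25 and 0.21 ± 0.31, so both were higher at 12 weeks by more than either SD. The same held for Sv2b, at -1.55 ± 0.24 at 12 weeks and -2.49 ± 0.53 at 7 weeks, and for Sv2c, at -1.81 ± 0.45 and -2.31 ± 0.24. After synuclein alone, Sv2a (0.793 ± 0.736 at 12 weeks, 0.301 ± 0.187 at 7 weeks) and Sv2c (-1.812 ± 0.712, -2.295 ± 0.291) differed by less than the 12-week SD. After saline Sv2a was at 1.423 ± 0.503 and -0.156 ± 0.033, and Sv2c at -1.8 ± 0.06 and -2.321 ± 0.245 (SD, n = 3 each). Over both treatments, Syn1 was at -1.26 ± 0.75 at 12 weeks and -0.82 ± 0.53 at 7 weeks, and Syn2 at -0.45 ± 0.96 and -0.44 ± 0.62. Syngr3 was at -0.004 ± 0.93 and 0.22 ± 0.56, and Sh3gl2 at -0.095 ± 0.73 and -0.68 ± 0.71 (SD, n = 6). Syn1, Syn2, Syngr3 and Sh3gl2 each differed between the times by less than either SD. These relative values are a description without a test.

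The log2 ratio of 1 gene to a related one was compared for 6 pairs in 2 comparisons, giving 12 exact two-sided permutation tests. None passed after adjustment, but a lone test could not pass here. The smallest exact permutation p of 0.005 is adjusted to 0.06 when no other test is near it. The ratio of Synj1 to Dnm1 came closest. It was 2.06, 0.95 and 1.21 after synuclein and 2.34, 2.14 and 2.13 after saline at 12 weeks, against 0.86, 0.88 and 0.64 after synuclein and 1.52, 0.76 and 1.67 after saline at 7 weeks. Within each treatment, every ratio at 12 weeks was above every ratio at 7 weeks. The mean was 1.80 ± 0.58 at 12 weeks and 1.05 ± 0.43 at 7 weeks (SD, n = 6), a difference of 0.75 with an exact permutation p = 0.005, the smallest the 400 arrangements allow, and an adjusted p = 0.06 over the 12 tests. On the pan-neuronal scale above, Synj1 was higher at 12 weeks and Dnm1 stayed within its spread. The part of cell composition in this ratio was not tested. The same ratio was 1.10 ± 0.51 after synuclein and 1.76 ± 0.58 after saline (SD, n = 6), a difference of -0.66 (exact permutation p = 0.035, adjusted p = 0.21). Without replicate 2 of saline at 7 weeks both differences, 0.61 and -0.8, passed (exact permutation, adjusted p = 0.03 each). The adjustment let them pass only because both had a small p at once. The difference in time was smaller there than the 0.75 from all 12 libraries, so the pass is not stronger evidence for it. The other 10 tests had adjusted p between 0.61 and 0.895. Among them, Syn2 to Syn1 differed by 0.44 in time and 0.44 between treatments, with adjusted p = 0.802 for each in the exact permutation test.

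**Figure D4:**
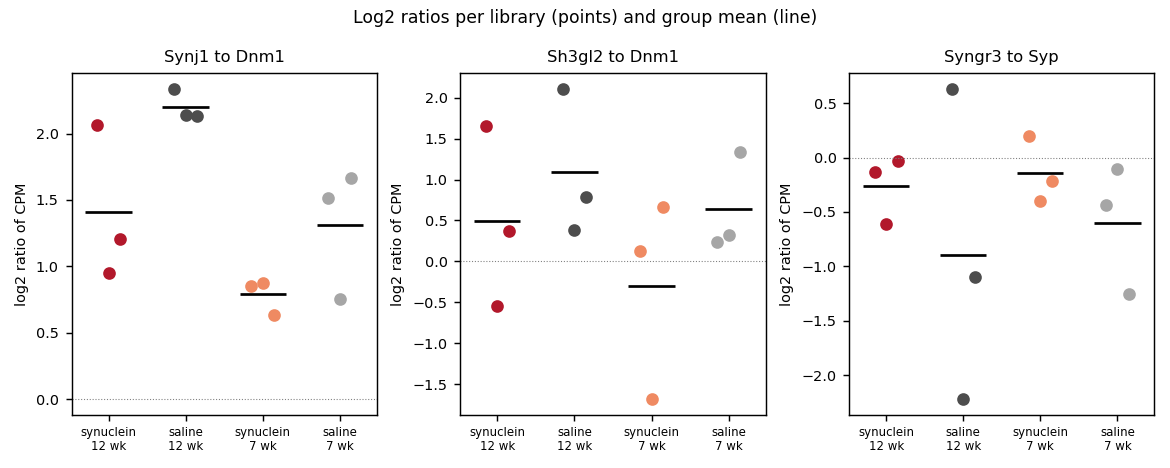
Log2 ratio of CPM for Synj1 to Dnm1, Sh3gl2 to Dnm1 and Syngr3 to Syp in each library (points) with the group mean (line), for synuclein and saline at 12 weeks, then synuclein and saline at 7 weeks. Synj1 to Dnm1 is at 2.13 to 2.34 in the 3 saline libraries at 12 weeks and at 0.64 to 0.88 in the 3 synuclein libraries at 7 weeks, while the groups overlap in the other panels.

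Between fibrils and saline, none of the 10 genes was called at either time by edgeR, DESeq2 or limma-voom, and edgeR called 0.0% of all genes at 12 weeks and 0.0% at 7 weeks. DESeq2 called some other genes at 12 weeks, as counted in the last section. At 12 weeks 7 of 10 were higher after synuclein, with a median log2 fold of 0.26 against -0.035 over all genes. At an unadjusted p under 0.05 there was 1 of 10, Dnm1, against 5.57% of all genes in either direction. Dnm1 averaged 29.7 ± 9.28 CPM after synuclein and 14.95 ± 0.891 CPM after saline at 12 weeks (SD, n = 3 each), and all 3 synuclein libraries were above all 3 saline libraries, which 4.01% of all genes showed. Its log2 fold was 0.99 ± 0.38 (unadjusted p = 0.0182, edgeR adjusted p = 0.887). At 12 weeks 12 of 15 pan-neuronal markers (median 0.394) and 12 of 12 endothelial markers (median 0.321) were also higher after synuclein, none of them called, and their part in the Dnm1 value was not tested. The next largest was Syngr3 at 0.69 ± 0.56, with 58.4 ± 22.1 CPM after synuclein and 36.3 ± 32.8 CPM after saline, and it ranged between 0.3 without replicate 2 of saline and 1.72 without replicate 1 of saline (unadjusted p = 0.00667 by edgeR's test across all genes, not called after adjustment). Syp was at 0.55 ± 0.36, which came to 0 without replicate 2 of synuclein, the one high library. Syn1 was lower in mean, 15.1 ± 11.3 CPM after synuclein and 21.9 ± 12.9 CPM after saline, with a log2 fold of -0.54 ± 0.56 that was 0.37 without both libraries that lay apart. Sv2a was at -0.43 ± 0.33, and Syn2, Sv2c, Sh3gl2, Sv2b and Synj1 were at 0.49, 0.34, 0.18, -0.18 and 0.12, each smaller than its standard error of 0.28 to 0.60.

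At 7 weeks 6 of 10 were higher after synuclein, with a median log2 fold of 0.19 against 0.012 over all genes. None of the 10 was at an unadjusted p under 0.05, against 1.64% of all genes. Syngr3 had the largest fold, 0.70 ± 0.55, with 116 ± 73.9 CPM after synuclein and 71.6 ± 32.9 CPM after saline, but it was 0.06 without replicate 1 of synuclein. Sv2a was at 0.50 ± 0.33, with 89.7 ± 31.7 CPM after synuclein and 63.5 ± 6.94 CPM after saline, and at 0.18 without that library. Dnm1 was at 0.46 ± 0.37, with 46.9 ± 13.5 CPM after synuclein and 34.2 ± 9.91 CPM after saline (SD, n = 3 each), and was lowest, 0.26, without replicate 3 of saline. The other 7 lay between -0.28 (Sh3gl2) and 0.27 (Syp). The synuclein SD exceeded the saline SD in all 10 genes, and without replicate 1 of synuclein the sign of the fold turned for Sv2c (-0.59), Syn1 (-0.4) and Syp (-0.1). At this time 12 of 13 microglial markers were higher after synuclein (median 1.135, none called), with summed levels of 161.7 to 694.8 CPM after synuclein and 130.7 to 254.5 CPM after saline, the highest being replicate 3 of synuclein, and their part in these values was not tested.

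**Figure D5:**
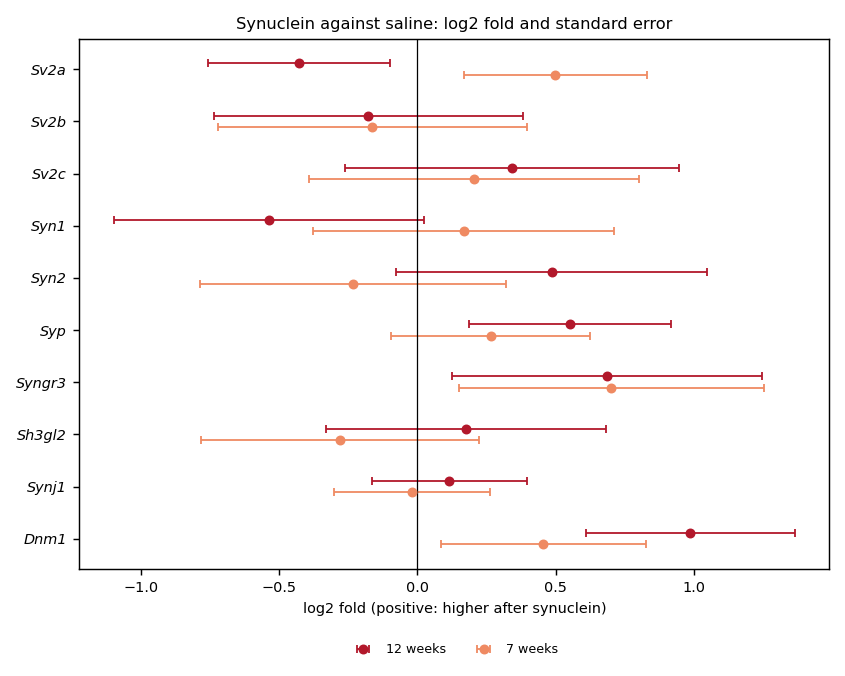
Log2 fold with its standard error (points and bars) of synuclein against saline for each gene at 12 weeks and at 7 weeks, from the edgeR fit of all genes, with positive values higher after synuclein. Dnm1 at 12 weeks (0.99) is the point farthest from 0 relative to its bar, and most other bars cross or nearly reach 0.

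Other genes of the vesicle cycle gave 1 call. Of 23 further vesicle genes (synaptotagmins, complexins, vesicular transporters and relatives), 21 were tested at 12 against 7 weeks over both treatments. Of these, 15 were lower and 6 higher with a median log2 fold of -0.31, and 53.0% of all genes were lower. At an unadjusted p under 0.05 edgeR had 8 of the 21, of which 6 were lower, against 9.82% of all genes in either direction. With an adjusted p under 0.05 by the edgeR test, 1 fell, against 0.834% of all genes called. That gene was Cplx1, complexin-1, which binds the assembled SNARE complex. It was at 116.8, 145.6 and 90.11 CPM after synuclein and 214, 126.5 and 87.29 CPM after saline at 12 weeks, against 649.4, 238.7 and 96.85 CPM after synuclein and 584.4, 278.3 and 365.9 CPM after saline at 7 weeks. Its log2 fold was -1.50 ± 0.34 (edgeR adjusted p = 0.0483), with replicate 3 of synuclein at 7 weeks inside the 12-week range. The call rests on the setting: it held in 7 of 22 others, with adjusted p between 0.0106 and 0.236, was lost with limma-voom (0.084) and with 10 of the 12 libraries left out in turn, and the fold was -1.01 without replicate 1 of synuclein at 7 weeks. DESeq2, which called more genes in all than edgeR (counted in the last section), called 4 genes of this list, Cplx1, Cplx2, Syt1 and Syt11. Of 37 further endocytosis genes (other dynamins and endophilins, clathrin, the AP2 adaptor, calcineurin and others), 23 were lower and 14 higher with a median of -0.093, and none was called by edgeR or limma-voom, while DESeq2 called Bin1 and Ppp3r1. At an unadjusted p under 0.05 in either direction edgeR had 5 of the 37, against 9.82% of all genes. The 3 with the highest mean FPKM were Bin1, an amphiphysin also abundant in oligodendrocytes, at 0.85 ± 0.22 (edgeR adjusted p = 0.0779), clathrin light chain Cltb at -0.10 ± 0.20, and the AP2 subunit Ap2s1 at -0.13 ± 0.21. Between synuclein and saline, neither list held a called gene at either time by edgeR, DESeq2 or limma-voom. At an unadjusted p under 0.05 edgeR had 3 endocytosis and 0 vesicle genes at 12 weeks, against 5.57% of all genes. At 7 weeks it had 0 of both lists, against 1.64% of all genes. Median log2 folds were 0.007 and 0.023 at 12 weeks and 0.105 and -0.044 at 7 weeks for the vesicle and the endocytosis list.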

How the data were processed

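The authors deposited 2 tables over 24346 genes and 12 libraries, one of estimated counts and one of FPKM, both made with TopHat2 2.0.13, Bowtie2 2.2.3 and Cufflinks 2.2.1, per the submitters' processing notes. The deposited counts are scaled: 98.75% to 98.94% of values per library were whole multiples, within 0.02 fragments, of a step between 0.6852 and 1.298, and dividing by it gave the fragments per library. No build of the genome is named in the labels or headers; deposited loci, with starts moved to count from 1, were read beside GENCODE M21 (GRCm38).

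Counts were rounded and tested in edgeR 4.0.16 (R 4.3.3) with filterByExpr, TMM and a quasi-likelihood fit of 4 group means to all 12 libraries (8 residual degrees of freedom, common biological coefficient of variation 46.6%). Adjustment was by Benjamini-Hochberg over 17380 genes, with a threshold of 0.05. Over all genes, log2 folds had a median standard error of 0.371 for 12 against 7 weeks over both treatments and 0.525 for a pair of groups, which limits precision. CPM values are TMM-scaled. Ratios are log2 values with 0.5 CPM added, tested by exact permutation within strata. Correlations use log2 CPM with a prior count of 2. Alternatives were DESeq2 1.42.0, limma 3.58.1, other filters and scalings, recovered fragments, log2 FPKM with a pseudocount of 1 or 0.1, a replicate block, only the 2 groups compared, and leaving out libraries. The fits were tested on simulated data. The rule named the 10 genes, called genes or otherwise the 3 with the highest FPKM of each related list, the 5 most alike genes, and Snap25, Th and Mbp. The genes, lists and the contrast over both treatments were chosen with earlier results of these data known, so they give no independent support.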

Additional observations from a re-analysis of the deposited data

How the results depend on the processing

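Over the other settings, 204 of 220 fold values of the 10 genes at 12 against 7 weeks over both treatments kept their direction and their side of the threshold, 3 newly passed (Dnm1, Syp and Syn1, as given above) and 13 turned in sign. Between synuclein and saline 8 of 230 turned at 12 weeks and 15 of 230 at 7 weeks. For 12 against 7 weeks, 26 of 230 turned after synuclein and 9 of 230 after saline, and for the difference of effects 33 of 220. Most turned values had folds near 0. The cause was not tested.

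Genes called over both treatments numbered 145, against 449 with DESeq2, 246 with the replicate block, 5 and 1 with log2 FPKM plus 1 and plus 0.1, and 0 without both libraries that lay apart. After saline 0 became 7 without the filter, 173 with DESeq2, 1 and 2 with FPKM, 34 with the block, 49 with only the 2 groups and 14 without both libraries. After synuclein DESeq2 called 59. At 12 weeks between synuclein and saline DESeq2 called 12 and FPKM 1 and 2, and for the difference of effects FPKM called 1 and 1. DESeq2 called 1 of the 10 genes over both treatments. The replicate numbers did not pair the libraries (r of same-numbered samples -0.06 to 0.091), and the block called none of the 10 genes.

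The Sv2b fold over both treatments (-0.02) was 0.00 with DESeq2 and its size factors, 0.1 with limma-voom, 0.05 and 0.1 with FPKM and 0.09 with the block. After saline it was 0.07, 0.02, 0.06 and 0.03 in the same order from limma-voom on, and 0.01 with only the 2 groups. After synuclein it was 0.00, 0.14, 0.08, 0.15 and 0.15, and 0.02 with only the 2 groups. The Sv2b difference of effects was 0.01 with DESeq2 and its size factors, 0.04 without the filter, 0.03 with CPM above 1, 0.07 with limma-voom, 0.00 with whole fragments, 0.06 and 0.1 with FPKM and 0.12 with the block. That of Syngr3 was 0.02, 0.04, 0.03, 0.4, 0.38, 0.43 and 0.36, without the whole fragments. Syn1 at 7 weeks was -0.06 with limma-voom, -0.03 and -0.05 with FPKM and -0.02 with the block. Without both libraries that lay apart, Syn1 at 12 weeks was 0.37, its difference of effects 0.21 and that of Syp -0.03, and after synuclein Sv2a was 0.05 and Sh3gl2 -0.09, and Cltb over both treatments was 0.1.

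Leaving out 1 library at a time, calls ranged over 24 to 214 for both treatments, 0 to 9 after saline, 0 to 2 after synuclein and 0 to 1 between synuclein and saline at 12 and at 7 weeks, with 0 to 1 of the 10 genes and 0 to 2 related pairs called. Over both treatments Sv2b ranged over -0.17 to 0.31, Sv2c over -0.64 to 0.01 and Cltb over -0.23 to 0.00. Between synuclein and saline at 12 weeks the ranges were -0.32 to 0.03 for Sv2b, -0.16 to 0.76 for Sv2c, -1.34 to 0.03 for Syn1, 0.00 to 0.91 for Syp and -0.15 to 0.97 for Sh3gl2. At 7 weeks they were -0.8 to 0.16 for Sv2b, -0.59 to 0.5 for Sv2c, -0.4 to 0.56 for Syn1, -0.85 to 0.17 for Syn2, -0.1 to 0.51 for Syp, -0.65 to 0.12 for Sh3gl2 and -0.23 to 0.23 for Synj1. After saline Sv2b ranged over -0.33 to 0.23. After synuclein the ranges were -0.4 to 0.11 for Sv2a, -0.32 to 0.64 for Sv2b, -0.81 to 0.5 for Sv2c, -0.88 to 0.14 for Syn2, -0.38 to 0.39 for Sh3gl2 and -0.34 to 0.13 for Synj1. The differences of effects ranged over -0.3 to 0.66 for Sv2b, -0.34 to 0.98 for Sv2c, -0.25 to 0.69 for Syp, -0.39 to 1.01 for Syngr3 and -0.09 to 0.38 for Synj1. Log2 ratios ranged over -0.35 to 0.07 for Sv2b to Sv2a and -0.59 to 0.12 for Syngr3 to Syp in time, and -0.3 to 0.42 for Sv2c to Sv2a between treatments.

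Sv2b and Sv2c, at 5.642 to 30.08 CPM, rest on the fewest fragments. Their standard errors over both treatments were 0.40 to 0.43, against 0.39 for each of Syn1, Syn2 and Syngr3, which had more fragments. A library left out leaves 2 in its group, which the fit assumes vary like the others. Without both libraries the lone synuclein library at 12 weeks is assumed to do so too.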
